A study of Ettlia oleoabundans with 10 samples.

Results

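The families described here are those whose transcript level differed between cultures of the green alga Ettlia oleoabundans at the upper end of its nitrate series, 1.5 and 3 mM set against 9 mM. A scaffold family, the unit of the deposited expression table, was taken as changed when its value at 1.5 mM and its value at 3 mM both lay at least 1.5-fold from the 9 mM control in the same direction. The limit was applied in log2 units, rounded up at the third decimal, so a difference of exactly 1.5-fold did not pass. Differences, and all folds below, were taken on log2(value + 1), over families averaging 1 or more in these 3 libraries. Of 10122 families in the table, 8606 reached that mean and 584 met the rule, 210 of them higher and 374 lower at the lower nitrate concentrations. The 3 cultures were of strain UTEX # 1185 and received 1.5 mM nitrate, 3 mM nitrate, or, in the control, 9 mM nitrate with 42 mM NaCl. All were started at 1000000 cells per ml in modified Bold Basal Medium with vitamins and kept in continuous light (22 to 28 µmol photons m-2 s-1) at 25 °C, 6 days in all, and the labels give no NaCl concentration for the 1.5 and 3 mM cultures. Poly(A)-selected RNA was sequenced from 1 library per condition, so replicate error is unknown and no test was made. The other 7 libraries of the series, with 0 to 0.75 mM nitrate or with 75 to 600 mM NaCl, are used only to show where the same families stood elsewhere.

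Green algae take up nitrate through membrane transporters and reduce it, by nitrate reductase and then nitrite reductase, to ammonium, which glutamine synthetase and glutamate synthase build into amino acids. When nitrogen runs short, such algae are known to cut back chlorophyll and protein synthesis and to store starch and oil, the trait for which E. oleoabundans is studied. The deposited table identifies families by number only and pairs none with a gene name, so no family below can be assigned to these pathways. No nucleotide or protein sequence was supplied with the table, and none is shown.

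Most families differed little over this range of nitrate. In 6828 of the 8606 families (79.3%) both lower-nitrate libraries lay within 1.5-fold of the control. Families higher in both made up 2.44% of those tested and families lower in both 4.35%, together 6.79%, and 1 family passed the threshold in opposite directions. These shares come from the rule itself and both differences use the same control library, so the match in direction between 1.5 and 3 mM is not independent support. The 1.5 mM library alone was at least 1.5-fold above the control in 488 families (5.67%) and below it in 1008 (11.7%). The 3 mM library was above it in 433 (5.03%) and below it in 434 (5.04%). For scale, the library of 0.75 mM nitrate was above the same control in 1487 families (17.3%) and below it in 1062 (12.3%), and that of 75 mM NaCl in 1592 (18.5%) and 676 (7.85%).

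The balance of the 2 directions depended on how the libraries were scaled. The median difference from the control over all tested families was -0.0032 log2 units for the 1.5 mM library and 0.09 for the 3 mM library, and 1.5 mM minus 3 mM had a median of -0.11. Of the 584 families, 64.0% were lower. After scaling by median ratios 155 families were higher and 465 lower, so that 75.0% were lower. Of these, 152 and 374 were among the 210 and the 374. All directions given below are on the deposited scale unless stated otherwise.

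**Figure D1:**
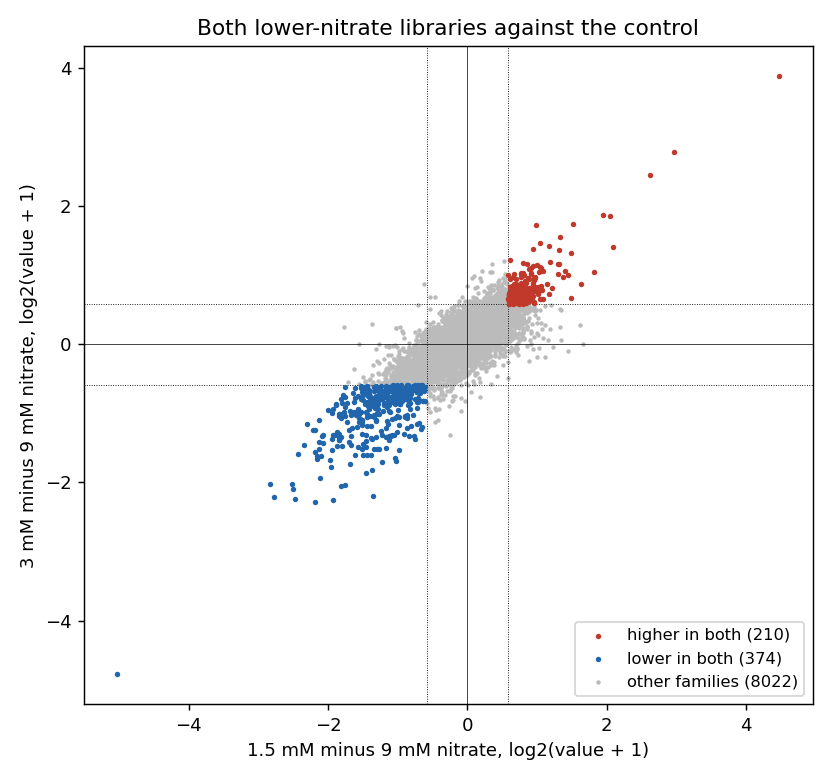
Difference of each of the 8606 tested families from the 9 mM control on log2(value + 1), at 1.5 mM nitrate (horizontal axis) and at 3 mM nitrate (vertical axis). Each point is 1 family, dotted lines mark the 1.5-fold limits on either side of 0, and coloured points are the 210 families higher and the 374 lower in both libraries; the 2 points farthest out are 534_c1 (upper right) and 6681_c0 (lower left).

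The smaller of a family's 2 differences had a median size of 0.72 log2 units among the 210 higher families and 0.80 among the 374 lower ones. Both libraries were at least 2-fold from the control in 24 higher families (0.279% of those tested) and 116 lower families (1.35%), and at least 4-fold in 3 and 7. Many families sat near the threshold. Within 0.1 log2 units of it, 89 higher families lay just inside and 214 just outside, and 101 lower families lay just inside and 139 just outside. The higher family nearest to the limit had 16.06 at 1.5 mM and 13.73 at 3 mM, against 8.81 in the control, while the nearest one left out had 23.03 and 26.66 against 15.03. On the lower side the nearest family inside had 24.31 and 31.73 against 48.12, and the nearest outside, whose 3 mM value was at exactly 1.5-fold with 1 added, 3.53 and 4.4 against 7.1.

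The changed families were expressed at lower levels than the tested families as a whole. The mean value over the 3 libraries had a median of 11.6 in the higher families and 9.41 in the lower ones, against 19.6 in all tested families. The rule enters this mean, since it sets 2 of the 3 values low in the lower families and the control low in the higher ones. In the control alone the medians were 7.4 (higher), 15.1 (lower) and 19.0 (all tested). Among families with a mean value from 1 to 5, 10.5% were lower in both and 3.64% higher in both. Among families from 20 to 100 these shares were 3.10% and 1.52%, and among those of 100 and over 3.20% and 2.14%. The distance between the 1.5 and 3 mM libraries, which the rule did not use, was also larger at low levels, with a median size of 0.26 log2 units from 1 to 5, 0.16 from 20 to 100 and 0.15 at 100 and over. The part that low values play in the larger share from 1 to 5 was not tested.

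**Figure D2:**
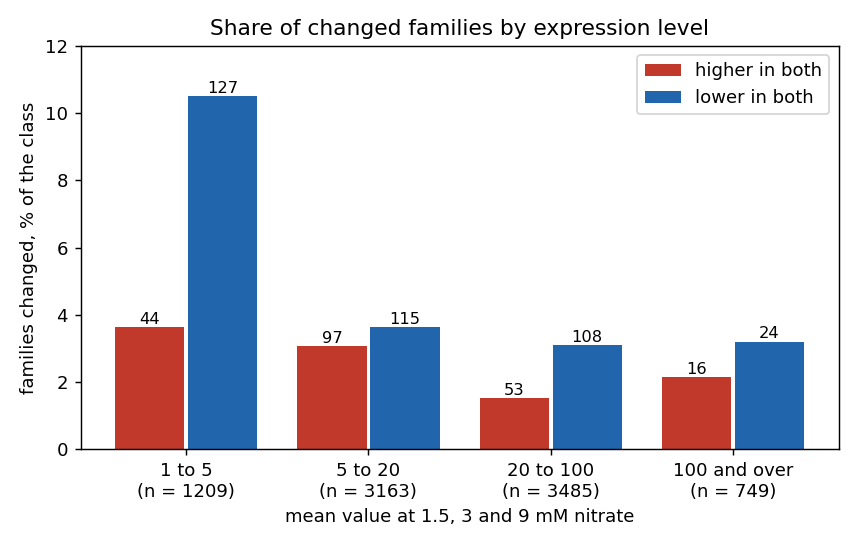
Percentage of tested families that were higher (left bar) or lower (right bar) at both 1.5 and 3 mM nitrate than in the control, by the mean value over the 3 libraries. Numbers above the bars are families and n is the size of each class; the class from 1 to 5 has the tallest bar, with 127 of 1209 families lower.

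Among the 210 higher families, 2 were named by the rule of the largest difference shared by both libraries at a mean value of 5 or more. Family 534_c1 had values of 1187.33 at 1.5 mM and 787.13 at 3 mM, against 52.28 in the control, which is 4.48 and 3.89 log2 units above the control. It was listed at 0 at 0 mM nitrate and had 0.06 at both 0.38 and 0.75 mM, and 7.59, 0.15, 1.22 and 0.76 at 75, 150, 300 and 600 mM NaCl. Its level was therefore highest in the 2 cultures with 1.5 and 3 mM, intermediate in the control, and lower in each of the other 7. Family 11213_c0 had 14.42 at 1.5 mM and 12.52 at 3 mM, against 0.97 in the control, 2.97 and 2.78 log2 units apart. Its control value was below the 1 added, so these sizes depend on that choice. They were 3.76 and 3.56 with 0.1 added, and 1.70 and 1.55 with 5 added. Family 11213_c0 had 5.48, 16.91 and 7.51 at 0, 0.38 and 0.75 mM nitrate, and was listed at 0 in all 4 libraries with 75 to 600 mM NaCl. Every other nitrate culture thus had more of 11213_c0 than the control did.

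Families 1157_c0 and 1082_c0, singled out after their values were seen for their likeness to 534_c1, also had their highest values at 1.5 and 3 mM. Family 1157_c0 had 412.75 and 391.78, against 106.64 in the control, with 5.46 to 13.43 at 0 to 0.75 mM nitrate and 9.43 to 29.58 under NaCl. Family 1082_c0 had 411.3 and 489.84, against 181.21 in the control, with 0.05 to 0.34 at 0 to 0.75 mM nitrate and 0.14 to 9.8 under NaCl. Both were far lower at 0.75 mM than at any higher nitrate concentration. At 0 to 0.75 mM, 5 of the 210 families (2.38%) had values at least 10-fold below both the 1.5 and the 3 mM value. This held in each of these libraries, with 1 added to each value, and applied to 17 of the 8606 tested families (0.198%). The rule favours such families, since it picked them for high values at 1.5 and 3 mM. Not all 5 were like 534_c1 under NaCl. Family 11_c0 had 212.27 and 214.34 at 1.5 and 3 mM, and 253.02 to 1880.89 under NaCl. The most abundant of the 210 had 847.82 at 1.5 mM and 1133.56 at 3 mM, against 564.12 in the control.

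Other higher families were spread over a wider range of conditions. The 1.5 and 3 mM libraries held the 2 highest values of all 10 libraries in 58 of the 210 families (27.6%), against 348 of the 8606 tested (4.04%). Within the nitrate series they held the 2 highest values in 111 of the 210 (52.9%), against 985 of all tested (11.4%). The rule favours such families, because it puts both libraries above the control. The value at 0.75 mM, which the rule did not use, was below both the 1.5 and the 3 mM value in 157 of the 210 families (74.8%) and above both in 38 (18.1%), where all tested families gave 36.4% and 47.3%. Here too the rule has an influence, since families were picked for high values at 1.5 and 3 mM. Together the 210 families held 2.08% of the library total at 1.5 mM and 1.90% at 3 mM, against 1.01% in the control.

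Among the 374 lower families, the rule named 6681_c0 and 11020_c0. Family 6681_c0 had 1.19 at 1.5 mM and 1.6 at 3 mM, against 70.35 in the control, which is -5.03 and -4.78 log2 units from the control. The library of 0.75 mM nitrate gave 17.25 and that of 75 mM NaCl 25.73, those of 0 and 0.38 mM nitrate and 150 mM NaCl listed it at 0, and those of 300 and 600 mM NaCl gave 0.42 and 0.73. Its values along the nitrate series therefore did not follow the order of concentration, with more transcript at 0.75 mM than at 1.5 or 3 mM. Family 11020_c0 had 2.99 at 1.5 mM and 3.71 at 3 mM, against 21.25 in the control, -2.48 and -2.24 log2 units apart. It had 1.11, 4.23 and 2.56 at 0, 0.38 and 0.75 mM nitrate, and 10.93, 6.58, 0.39 and 0.34 at 75, 150, 300 and 600 mM NaCl. The control thus had the highest level of 11020_c0 in the series. The most abundant of the 374 had 675.58 at 1.5 mM and 1000.64 at 3 mM, against 1616.57 in the control.

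**Figure D3:**
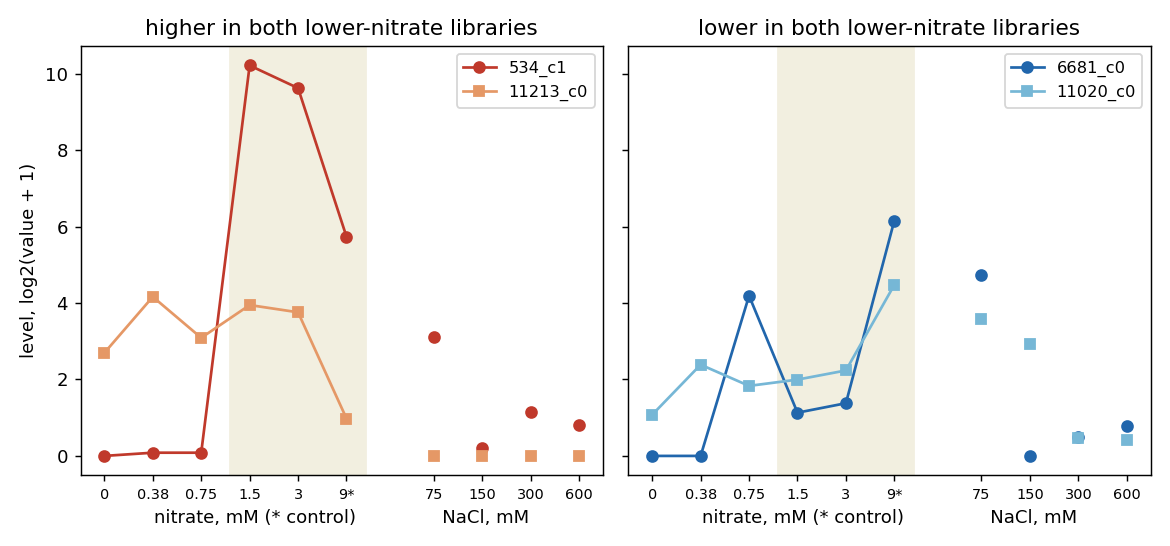
Level, as log2(value + 1), of the 2 named families higher (left) and the 2 lower (right) at both 1.5 and 3 mM nitrate, in each of the 10 libraries. Lines join the nitrate series, the shaded band holds the 3 libraries compared and points on the right of each panel are the NaCl libraries; 534_c1 reaches 1187.33 at 1.5 mM, and 6681_c0 has 17.25 at 0.75 mM and 1.19 at 1.5 mM.

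From low to high nitrate the median values of the 374 lower families were 5.68 (0 mM), 10.4 (0.38 mM), 11.6 (0.75 mM), 5.65 (1.5 mM), 7.35 (3 mM) and 15.1 (control). The 0.75 mM value was above both the 1.5 and the 3 mM value in 286 of the 374 families (76.5%), against 47.3% of all tested families, and below both in 40 (10.7%). After median-ratio scaling it was above both in 285. The families were picked for low values at 1.5 and 3 mM and a high control, so a library outside the rule is favoured to lie above both, and the dip of the medians at 1.5 and 3 mM follows in part from the rule. The 1.5 and 3 mM libraries held the 2 lowest values of the nitrate series in 119 families (31.8%, against 10.4% of all tested) and of all 10 libraries in 74 (19.8%, against 5.60%), which the rule favours. The 374 families held 1.61% of the library total at 1.5 mM and 1.95% at 3 mM, against 3.90% in the control, a direction that the rule sets.

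Comparisons of 0.75 mM nitrate and of 75 mM NaCl with the control share that control library with the rule, so their values are given side by side only. The 210 higher families had median differences from the control of 0.79 (1.5 mM), 0.77 (3 mM), 0.43 (0.75 mM nitrate) and 0.43 (75 mM NaCl). For the 374 lower families these medians were -1.20, -0.83, -0.43 and -0.54. At 0.75 mM nitrate 83 of the 210 were at least 1.5-fold above the control and 28 below it (17.3% and 12.3% of all tested families), while 43 of the 374 were above it and 157 below. At 75 mM NaCl 75 of the 210 were above the control and 13 below it (18.5% and 7.85% of all tested), while 48 of the 374 were above it and 174 below.

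**Figure D4:**
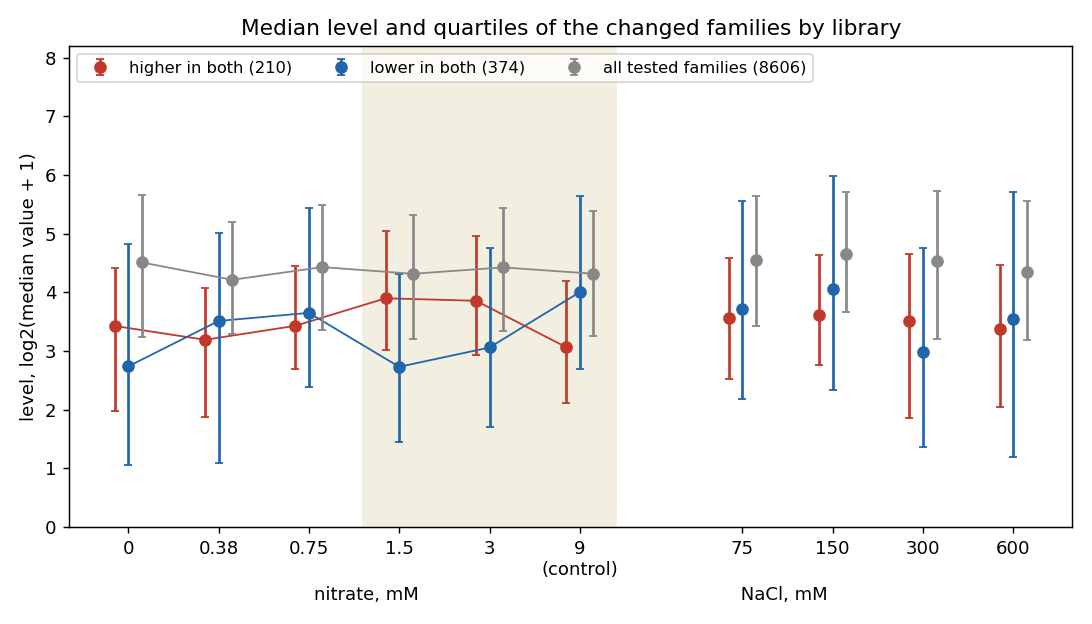
Median level, as log2(median value + 1), with bars from the lower to the upper quartile over families, in each library for the 210 higher families, the 374 lower families and all 8606 tested families. The shaded band holds the 3 libraries compared, and lines join the nitrate series; the lower families have median values of 11.6 (0.75 mM), 5.65 (1.5 mM) and 15.1 (control).

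A direct comparison of 1.5 with 3 mM, in which the control has no part, showed smaller differences. The 1.5 mM library was at least 1.5-fold above the 3 mM library in 103 families (1.2%) and below it in 393 (4.57%). With median-ratio scaling these counts were 168 and 224. Among the 210 higher families 5 were above and 2 below, and the median of 1.5 mM minus 3 mM was 0.01. Among the 374 lower families 4 were above and 77 below (20.6%), with a median of -0.31 against -0.11 over all tested families. In 301 of the 374 (80.5%) the 3 mM value lay between that at 1.5 mM and that in the control, so that the 1.5 mM value was below the 3 mM value, as it was in 69.3% of all tested families. After median-ratio scaling it did so in 276 (73.8%, against 51.8% of all tested with the lower value at 1.5 mM). The 3 mM value also lay between the other two in 115 of the 210 higher families (54.8%), so that the 1.5 mM value was above the 3 mM value, as it was in 30.6% of all tested, and after scaling in 162 (77.1%, against 48.2%). The families were picked on all 3 of these values, so the shares among the 210 and the 374 are not independent of the rule. The distance between the 1.5 and 3 mM libraries was smaller than either distance to the control in 209 of the 210 higher and 340 of the 374 lower families, against 3831 of the 8606 tested (44.5%); the rule, which sets a minimum to both distances, favours this order.

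By the naming rule for 1.5 mM against 3 mM, family 1287_c0 was the farthest above and 4973_c0 the farthest below. Family 1287_c0 had 63.17 at 1.5 mM, against 19.4 at 3 mM, and 19.33 in the control, a difference between 1.5 and 3 mM of 1.65 log2 units. It had 282.72, 128.92 and 174.73 at 0, 0.38 and 0.75 mM, so that its 1.5 mM level lay between those of the lower and of the higher concentrations. Family 1084_c0 had the next largest difference, 1.53 log2 units, with 15.92 at 1.5 mM, against 4.84 at 3 mM, and 5.23 in the control, below the 237.05 to 1298.79 found at 0 to 0.75 mM. Family 4973_c0 had 8.23 at 1.5 mM, against 36.71 at 3 mM, and 30.66 in the control, a difference of -2.03 log2 units. It had 3.79, 4.49 and 15.05 at 0, 0.38 and 0.75 mM nitrate and at most 0.57 under NaCl. Family 10948_c0, with 2.88 at 1.5 mM, against 10.45 at 3 mM (-1.56 log2 units), had 10.39 in the control and was listed at 0 in all 4 libraries with 75 to 600 mM NaCl. In these 4 families the 3 mM library lay close to the control and the 1.5 mM library lay on the side of the lower nitrate concentrations.

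Families that passed the threshold at 1.5 mM while 3 mM stayed within 1.5-fold of the control numbered 278 higher (3.23%) and 633 lower (7.36%). The naming rule gave 1287_c0 and 5999_c0 as higher. Family 5999_c0 had 21.73 at 1.5 mM and 7.97 at 3 mM, against 6.4 in the control (1.62 log2 units at 1.5 mM), and had 9.97 to 48.28 at 0 to 0.75 mM. As lower it gave 4973_c0 and 7834_c0. Family 7834_c0 had 4.34 at 1.5 mM and 10.91 at 3 mM, against 16.46 in the control (-1.71 log2 units at 1.5 mM), and its 1.5 mM value was the lowest of all 10 libraries.

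Families that passed at 3 mM while 1.5 mM stayed within 1.5-fold numbered 222 higher (2.58%) and 60 lower (0.697%), a balance that turned to 92 higher and 107 lower with median-ratio scaling. The higher ones named were 9293_c0 and 3262_c0. Family 9293_c0 had 6.81 at 1.5 mM and 11.87 at 3 mM, against 5.22 in the control (1.05 log2 units at 3 mM). Family 3262_c0 had 14.06 and 19.94, against 9.32 in the control (1.02 log2 units at 3 mM), and reached 217.86 without nitrate. The lower ones named were 4708_c0 and 2405_c0. Family 4708_c0 had 24.22 and 11.04, against 29.07 in the control (-1.32 log2 units at 3 mM), and 257.3 at 0.75 mM. Family 2405_c0 had 38.1 and 23.52, against 51.49 in the control (-1.10 log2 units at 3 mM), with 273.45 to 386.11 at 0 to 0.75 mM. Over the nitrate series, 4708_c0 peaked at 0.75 mM and 2405_c0 had its lowest value at 3 mM.

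Contrasts between libraries that the rule did not use showed how the same families behaved under other conditions. For 0 minus 0.75 mM nitrate, the 374 lower families had a median of -0.45 log2 units, against 0.12 over all tested families, with 37 at least 1.5-fold higher at 0 mM and 165 lower (22.1% and 18.4% of all tested). For 300 minus 75 mM NaCl their median was -0.52 against 0.00, with 26 higher and 170 lower at 300 mM (8.28% and 15.3% of all tested). For 600 minus 300 mM NaCl it was 0.51 against -0.18, with 176 higher and 66 lower at 600 mM (17.1% and 27.3% of all tested). The last 2 contrasts share the 300 mM library, so a low value there enters both. The 210 higher families had medians of -0.02, -0.02 and -0.23 in these contrasts, against 0.12, 0.00 and -0.18 over all tested families. Each contrast compares 1 library with 1 other, without a test.

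**Figure D5:**
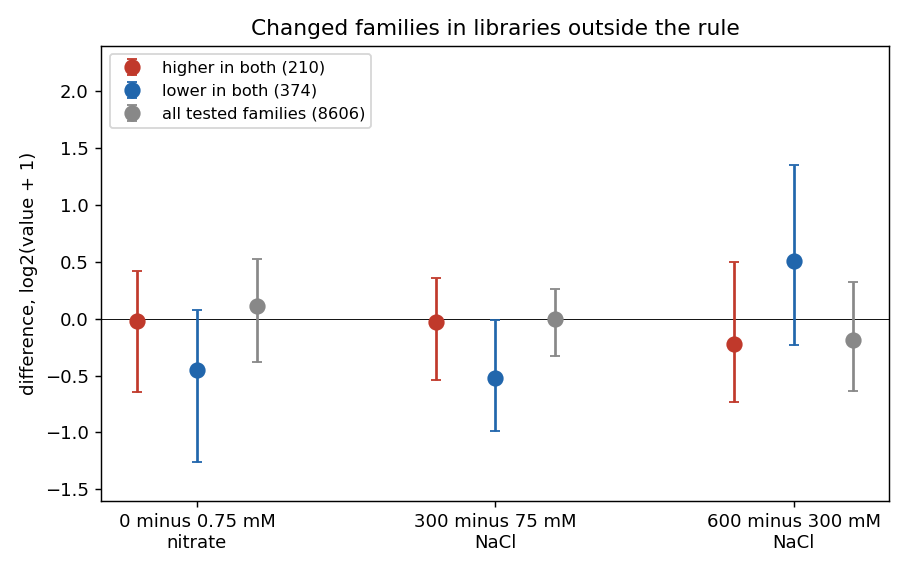
Difference in log2(value + 1) between pairs of libraries that the rule did not use, as median (point) and quartiles (bar) over the 210 higher families, the 374 lower families and all 8606 tested families. The lower families have medians of -0.45, -0.52 and 0.51, and the higher families of -0.02, -0.02 and -0.23.

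A subset of the lower families was listed at 0 in both libraries whose titles carry a code beginning with RAA, those of 0.38 mM nitrate and 150 mM NaCl. It held 59 of the 374 families (15.8%), among them 6681_c0, against 3 of the 210 higher families and 191 of the 8606 tested (2.22%). The labels do not explain the code. The median value of the 59 was 1.19 at 1.5 mM and 1.45 at 3 mM, against 3.87 in the control, and 41 of them had a mean value under 5 over these 3 libraries. Their medians were 0.58 without nitrate, 4.24 with 0.75 mM nitrate, and 1.54, 0.67 and 0 with 75, 300 and 600 mM NaCl. By median the 59 were thus highest in the libraries of 0.75 and 9 mM nitrate. The rule sets the control above the 1.5 and 3 mM libraries, and the subset was chosen for 0 in the RAA-coded libraries. This order follows in part from those choices. Without the 59 families, 315 lower families remained, with medians of 6.63 at 1.5 mM and 9.03 at 3 mM, against 17.9 in the control, and 13.2 at 0.75 mM. The 315 had a median of -0.31 for 0 minus 0.75 mM nitrate, -0.51 for 300 minus 75 mM NaCl and 0.77 for 600 minus 300 mM NaCl, where the 59 had -1.13, -0.58 and -0.74. At 600 mM NaCl 49 of the 59 were listed at 0, against 64 of all 374 lower families and 228 of the 8606 tested (2.65%). The subset of 59 families was chosen after its values were seen.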

How the data were processed

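Poly(A)-selected RNA of Ettlia oleoabundans cultures was sequenced, per the labels' protocols. The deposited table holds 1 signal per scaffold family and library: values with 2 decimals that are never negative and sum to a different total in each library. The authors' unit is named in no label or header, so read depth and any scaling for length or depth are unknown. No counting interval or detection limit is given. Bowtie 0.12.8, RSEM 1.2.0 and edgeR 3.0.8 are listed, without role, per the submitters' processing notes; neither labels nor headers give the reference sequences or any filter. Library totals were 473578 (1.5 mM), 511359 (3 mM) and 477174 (control), and 362924 to 695913 over all 10 libraries.

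Columns were matched to samples by title; 0 value columns were left unused. Values were used as deposited, with a pseudocount of 1, in Python 3.11.15 with pandas 2.3.3. Families under a mean of 1 (1516, of which 866 were listed at 0 in all 3 libraries) were left out. With 1 library per condition no p-value was computed, and fold changes of low values are understated by the pseudocount. Families with a mean of at least 5 were named, at most 2 per direction, by the largest difference from the control in both libraries (the smaller of the 2), at 1.5 mM alone, at 3 mM alone, and between 1.5 and 3 mM. The rule for the families, the naming rule and the contrasts were chosen with earlier results of these data known. The calling step was run on simulated data with planted changes larger than the 1.5-fold limit, in families averaging at least 5. That setting does not show how often calls near the limit, or in families of lower mean, are wrong. Alternatives were median-ratio scaling (over 9020 families above 0 in all 3 libraries, or 8445 in all 10), equal totals, pseudocounts of 0.1 and 5, minimum means of 5 and none, a 2-fold minimum, and each lower-nitrate library alone.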

Additional observations from a re-analysis of the deposited data

How the results depend on the processing

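With a 2-fold minimum, 24 families were higher and 116 lower in both libraries, 37 and 243 passed at 1.5 mM alone, 23 and 21 at 3 mM alone, and 14 and 35 between 1.5 and 3 mM. With a pseudocount of 5 these pairs were 71 and 201, 139 and 365, 86 and 21, and 40 and 110. With a pseudocount of 0.1, 325 were higher in both, and 176 and 607 passed between 1.5 and 3 mM. Median-ratio scaling gave 92 and 107 at 3 mM alone and 168 and 224 between 1.5 and 3 mM, where equal totals gave 97 and 106, and 168 and 231. With a minimum mean of 5, 247 were lower in both and 32 lower at 3 mM alone. Against the control, the 1.5 mM library alone gave 488 higher and 1008 lower, and the 3 mM library alone 433 higher. The other counts stayed within 1.5 times of those reported. With a pseudocount of 5, an alternative chosen after seeing the data, the median of the lower families relative to all tested ones was -0.33 (0 minus 0.75 mM nitrate), -0.26 (300 minus 75 mM NaCl) and 0.46 (600 minus 300 mM NaCl), against -0.56, -0.52 and 0.69 with a pseudocount of 1, and that of the higher families for 600 minus 300 mM NaCl turned to 0.0016 from -0.04. The causes were not tested. Each difference by which a family was named kept its direction and stayed past 1.5-fold under both scalings and both pseudocounts, 80 values in all. For families named at 1.5 mM alone or 3 mM alone, the difference of the other library was not among these values. On the deposited scale it was -0.55 for 7834_c0 at 3 mM and 0.55 for 3262_c0 at 1.5 mM. Both lie near the 1.5-fold limit, so the class of these families may not hold under the alternatives. Read depth is unknown and each condition is 1 culture, so variation between cultures cannot be told apart from the effect of nitrate. No paired analysis was possible because each condition has 1 library.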

Other observations

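Some of the families that differed between 1.5 or 3 and 9 mM nitrate reached far higher levels with added NaCl. In 16 of the 374 lower families and 9 of the 210 higher families, the value with 1 added was at least 10-fold above the control in at least 1 library of 75 to 600 mM NaCl, as in 135 of the 8606 tested families (1.57%). The median value of the 16 was 2.67 at 1.5 mM and 3.75 at 3 mM nitrate, against 7.99 in the control, and 122, 111, 30.7 and 166 at 75, 150, 300 and 600 mM NaCl. The 9 had 11.8 and 10.2, against 3.98 in the control, and 13.3, 50.1, 53.6 and 129 over the same NaCl range. These comparisons share the control library with the rule that chose the families and have no test. Family 69_c0 was singled out for its NaCl values. It had 23.4 at 1.5 mM and 41.81 at 3 mM, against 173.51 in the control. It had 4.18 to 23.8 at 0 to 0.75 mM nitrate, and 4780.85, 10677.56, 16709.25 and 16069.19 at 75, 150, 300 and 600 mM NaCl, where it made up 2.81% of the library total at 600 mM. The 374 lower families held 8.85% of that library's total with 69_c0 and 6.04% without it. Without 69_c0 they held 3.86% in the control, and 3.32%, 5.03% and 3.22% at 75, 150 and 300 mM NaCl.

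Some families share the first number of their identifier. This was so for 15 of the 210 higher families (7.14%) and 16 of the 374 lower ones (4.28%), against 487 of the 8606 tested (5.66%). The labels do not say what a shared number means. Of the 30 numbers that held a changed family and at least 1 other family of the table, 1 held 2 changed families, 493_c0 and 493_c4, both lower, named here after their values were seen. No number held a higher and a lower family. Of all tested families 2.44% were higher and 4.35% lower. With only 1 number holding 2 changed families, no direction can be read from shared numbers. Family 534_c1, with 1187.33 at 1.5 mM against 52.28 in the control, shares its number with 534_c0, which had 32.25 at 1.5 mM and 33.09 at 3 mM, against 30.18 in the control, and with 534_c2, which had 180.23 and 161.54, against 117.44 in the control. Of these 2, neither met the rule, and 534_c2 was past 1.5-fold at 1.5 mM alone.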
